A study of Mus musculus with 12 samples.

Results

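The retinoid genes described here are the enzymes that make and break down retinoic acid, a binding protein and a receptor that is itself a retinoic acid target. They were taken by gene symbol from the deposited count table, and all 9 (Adh1, Aldh1a1, Aldh1a2, Aldh1a3, Rdh10, Cyp26a1, Cyp26b1, Rarb and Crabp1) were found once among its 54532 gene rows. Their expression was measured by bulk RNA-seq in 12 libraries from mouse ovaries at E15.5 (E, embryonic day), carrying the Tg(Pou5f1-EGFP)2Mnn reporter, in which regulatory sequence of Pou5f1 (OCT4) drives green fluorescent protein (GFP) in germ cells. Dams received dexamethasone (dex, a synthetic steroid that activates the glucocorticoid receptor) in a dose of 10 µg/g, or the saline vehicle, by intraperitoneal injection on each day from E12.5 to E15.5. Ovaries were pooled over litters, dissociated and sorted by GFP, positive cells as germ cells and negative cells as somatic cells. This gave 4 groups of 3 libraries: dex germ cells, saline germ cells, dex somatic cells and saline somatic cells. Every group carried the reporter, and the GFP-negative fraction was a mixture of all other ovarian cell types and not a single cell type.

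Retinoic acid is made from retinol (vitamin A) in 2 steps. Alcohol dehydrogenases such as ADH1 and the membrane-bound retinol dehydrogenase RDH10 oxidize retinol to retinal, and the retinaldehyde dehydrogenases ALDH1A1, ALDH1A2 and ALDH1A3 oxidize retinal to retinoic acid. CYP26A1 and CYP26B1 hydroxylate retinoic acid and so start its breakdown, CRABP1 binds it in the cytoplasm, and the nuclear receptors RARA, RARB and RARG, paired with RXR proteins, bind it in the nucleus. Rarb and Cyp26a1 are textbook targets that retinoic acid induces. In the fetal gonad, retinoic acid is known for its link to Stra8 and the start of meiosis, and CYP26B1 for keeping it from germ cells in the fetal testis.

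Stretches upstream of the RefSeq transcript start (GRCm38.p6) are shown for 4 of the genes, because Rarb and Cyp26a1 carry the classical retinoic acid element, Adh1 had the largest dex response of the 9 genes and Cyp26b1 was the gene whose response differed between the cell types. RefSeq promoter windows, 250 bases before to 50 bases after the start, were matched for 7 of the 9 genes, with 8 windows in all. Both strands were searched for a direct repeat, with 5 bases between its copies, of the retinoic acid receptor cores AGGTCA or GGGTCA or AGTTCA or GGTTCA, for the glucocorticoid receptor core AGAACA, which reads TGTTCT on the other strand, and for the palindrome of that core with 3 bases between its arms. Capitals mark the matched cores. Annotated exon was left out of the printed stretches, except for Rarb, where an annotated first exon covers the window and only 30 bases around the repeat are given. The stretches of Cyp26a1, Adh1 and Cyp26b1 begin 250 bases before the RefSeq start. They end at the first annotated exon, after 240, 159 and 152 bases, and so do not reach that start.

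Rarb, chr14:16575506-16575535, minus strand: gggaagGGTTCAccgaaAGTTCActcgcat

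Cyp26a1, chr19:37697558-37697797, plus strand: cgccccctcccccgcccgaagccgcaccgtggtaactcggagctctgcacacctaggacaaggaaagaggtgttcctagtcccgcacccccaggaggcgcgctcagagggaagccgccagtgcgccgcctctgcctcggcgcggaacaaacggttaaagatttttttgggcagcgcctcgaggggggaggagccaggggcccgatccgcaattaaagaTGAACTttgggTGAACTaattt

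Adh1, chr3:138277335-138277493, plus strand: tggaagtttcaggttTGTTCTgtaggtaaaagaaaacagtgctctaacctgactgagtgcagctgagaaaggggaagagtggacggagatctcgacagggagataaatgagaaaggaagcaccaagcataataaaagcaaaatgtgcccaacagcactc

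Cyp26b1, chr6:84593909-84594060, minus strand: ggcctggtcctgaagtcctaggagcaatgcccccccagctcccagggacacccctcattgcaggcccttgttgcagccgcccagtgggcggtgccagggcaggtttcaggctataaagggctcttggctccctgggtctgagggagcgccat

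The direct repeat lay 53 to 37 bases before the start in Rarb, on the gene's strand, and 32 to 16 bases before it in Cyp26a1, on the opposite strand. It was present in 32 of 32851 RefSeq promoter windows (0.0974%). The glucocorticoid receptor core was matched once, in Adh1, 235 to 230 bases before the start, and was present in 6233 windows (19.0%). The palindrome was found in 3 windows (0.0091%) and in none of the matched retinoid genes. A match describes these letters only. It was not tested as a binding site, and its absence says only that the letters are not in the window.

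Libraries held 14658503 to 17616664 counts in germ cells and 15161804 to 18245507 in somatic cells, so that 3 counts, taken as the floor of detection, stood for 0.169 to 0.196 CPM (counts scaled to library size by the TMM method). This floor covers counting error only. The summed level of 8 germ cell markers was 3210 to 3864 CPM in germ cell libraries and 8.84 to 27.3 CPM in somatic libraries. Among known glucocorticoid receptor targets, Fkbp5, Per1, Tsc22d3 and Zbtb16 rose after dex in somatic cells by 1.29, 1.68, 1.08 and 6.94 on the log2 scale, with an adjusted p by edgeR of at most 6.20e-07. In germ cell libraries Per1 rose by 1.91 and Zbtb16 by 2.96 (adjusted p by edgeR at most 0.0249), while Fkbp5 and Tsc22d3, at 0.33 and -0.04, did not pass the test (adjusted p by edgeR = 0.162 and 0.866). In ovaries cultured with dex, the paper saw PLZF, the Zbtb16 protein, rise in GFP-negative cells and not in germ cells. How much of the Per1 and Zbtb16 transcript in germ cell libraries came from somatic cells was not tested.

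The order of the genes was first read in saline somatic cells, in FPKM, the level scaled to exon length and depth that the authors deposited. Aldh1a2 was highest at 121 ± 6.41 FPKM (SD, n = 3), followed by Crabp1 at 69.4 ± 10.2 FPKM. Aldh1a1 at 16.6 FPKM (15.4 to 17.9) and Rdh10 at 15.4 FPKM (14.2 to 17.2) overlapped between libraries, so their order was within the spread. Adh1 followed at 10.4 ± 0.419 FPKM and Cyp26b1 at 2.95 ± 0.379 FPKM. Aldh1a3 at 1.91 FPKM and Rarb at 1.85 FPKM overlapped, and Cyp26a1 was lowest at 0.564 ± 0.407 FPKM. Aldh1a2 thus accounted for 86.8% ± 0.523 of the summed FPKM of the 3 retinaldehyde dehydrogenases, Aldh1a1 for 11.8% ± 0.560 and Aldh1a3 for 1.37% ± 0.132. After dex, Adh1 stood at 60.9 ± 9.46 FPKM, rank 2 in place of rank 5, and its 3 libraries (53.0 to 71.3 FPKM) overlapped those of Crabp1 (45.3 to 56.3 FPKM).

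**Figure D1:**
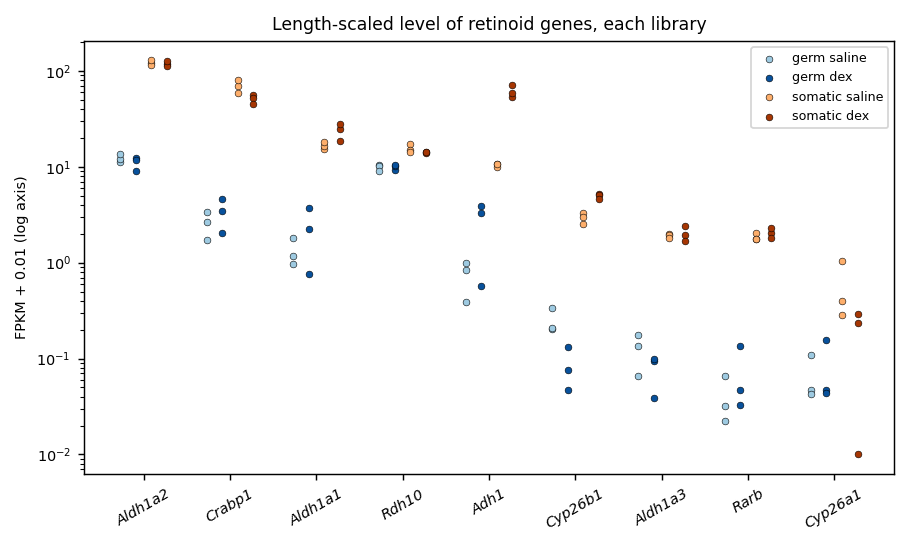
Length-scaled level (FPKM plus 0.01, log axis) of each retinoid gene in each of the 12 libraries, ordered by the level in saline somatic cells, with 1 point per library and colour giving cell type and treatment. Aldh1a2 was highest in somatic cells, Rdh10 lay close in both cell types, and Adh1 moved from rank 5 to rank 2 in somatic cells after dex.

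The comparison of germ with somatic cells among saline libraries asked in which sorted fraction each gene was expressed. Of the 9 genes, 8 passed the low-count filter and all 8 were lower in germ cells. Of all 17941 genes tested, 86.1% differed, 7739 higher and 7701 lower in germ cells. Rarb and Aldh1a3 did not pass the filter among germ cell libraries alone and entered here through their somatic counts. For them a lower germ cell level was thus largely set by the filter. The smallest difference was that of Rdh10, which averaged 41.0 ± 3.20 CPM over the germ cell libraries against 66.1 ± 6.61 CPM over the somatic libraries (log2 difference -0.69, SE 0.09, adjusted p by edgeR = 5.64e-06). For the other genes tested, the log2 difference ran from -3.36 for Aldh1a2 to -5.90 for Rarb, with Aldh1a1 at -3.71, Cyp26b1 at -3.66, Adh1 at -3.84, Aldh1a3 at -4.05 and Crabp1 at -4.79 (adjusted p by edgeR at most 8.07e-09). The Rarb and Aldh1a3 differences rest on 1 to 5 and 4 to 13 counts per saline germ cell library. Aldh1a2, the most abundant synthesizing enzyme, averaged 27.5 ± 2.73 CPM over the saline germ cell libraries against 283 ± 14.4 CPM over the saline somatic libraries. Cyp26a1 did not pass the filter. It had 1, 3 and 1 counts in the saline germ cell libraries and 8, 11 and 31 counts in the saline somatic libraries. In the 6 alternatives that tested Cyp26a1 it was called lower in germ cells in all 6 (log2 difference -3.92 to -3.00), on these few counts.

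Dex was next compared with saline within somatic cells. Adh1 rose strongly and Cyp26b1 and Aldh1a1 rose modestly, while Crabp1 fell. Aldh1a2, Aldh1a3, Rdh10 and Rarb did not pass the test. Of the 8 genes tested, 4 were called at a Benjamini-Hochberg (BH) adjusted p of at most 0.05, 3 higher and 1 lower, where 8.18% of all 16556 genes tested were called (797 higher and 557 lower). The retinoid genes were chosen with earlier results of these data known, so their share is not a test of them as a set. Their median log2 fold change was 0.11, beside 0.00 over all genes.

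**Figure D2:**
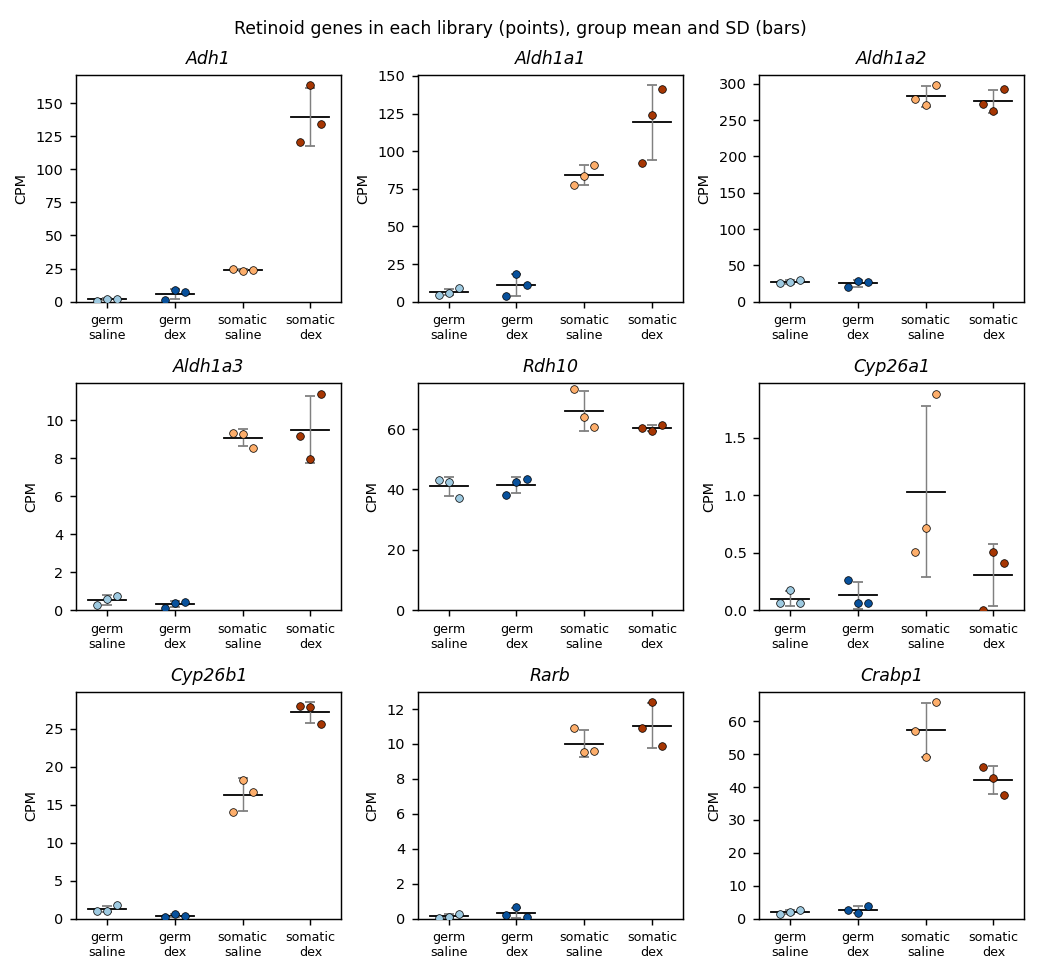
Level of each retinoid gene in CPM (linear axes that start at 0) in the 4 groups, with 1 point per library, the group mean as a horizontal line and the SD as a bar (n = 3). In somatic cells Adh1, Aldh1a1 and Cyp26b1 were higher and Crabp1 lower in all 3 dex libraries than in any saline library, and most genes lay near the bottom of the axis in germ cells.

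Among the genes of retinol oxidation, Adh1 (chromosome 3, 138260991 to 138290698, GRCm38) was at 24.5, 22.9 and 24.2 CPM in the saline somatic libraries and at 121, 164 and 134 CPM in the dex somatic libraries. Every dex library was far above every saline library. The rise was 5.86-fold (log2 fold change 2.55, SE 0.11, 95% interval 2.32 to 2.78, adjusted p by edgeR = 1.00e-08), which placed Adh1 at rank 28 by size and rank 5 by p among the 797 genes that rose. The calls of Adh1 and Cyp26b1 held in each of the 11 alternatives run. Rdh10 (chromosome 1, 16105774 to 16133734), the other enzyme of this step, was at 73.4, 64.1 and 60.7 CPM in saline against 60.3, 59.4 and 61.2 CPM in dex. Its groups overlapped, with a log2 fold change of -0.12 (95% interval -0.29 to 0.04, adjusted p by edgeR = 0.412).

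Among the retinaldehyde dehydrogenases, Aldh1a1 (chromosome 19, 20492715 to 20643462) was at 77.8, 83.4 and 91.1 CPM in saline and at 92.3, 124 and 141 CPM in dex. The groups did not overlap, although dex replicate 1 lay only just above the highest saline library. The rise was 1.42-fold (log2 fold change 0.51, SE 0.12, 95% interval 0.25 to 0.77, adjusted p by edgeR = 0.0201). This call was lost when dex replicate 2, saline replicate 1 or saline replicate 2 was left out (adjusted p by edgeR 0.0828, 0.104 and 0.0717) and when the spread was shared over all 12 libraries (0.341). Aldh1a7, a close paralog with which Aldh1a1 may share reads, was at 4.31 ± 1.30 CPM in saline against 7.40 ± 2.51 CPM in dex (log2 fold change 0.79, adjusted p by edgeR = 0.112).

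Aldh1a2 (chromosome 9, 71215789 to 71296243) was at 279, 271 and 299 CPM in saline somatic cells and 273, 263 and 294 CPM after dex, which overlapped. Its log2 fold change was -0.03, and the 95% interval of -0.17 to 0.12 bounds any change at this depth (adjusted p by edgeR = 0.862). Aldh1a3 (chromosome 7, 66390890 to 66427517) was at 9.34, 9.29 and 8.55 CPM in saline against 9.19, 7.93 and 11.4 CPM in dex, with a log2 fold change of 0.08 (95% interval -0.29 to 0.44, adjusted p by edgeR = 0.850). The summed FPKM of the 3 enzymes was 140 ± 7.34 in saline and 145 ± 9.92 in dex somatic cells, a difference within the spread between libraries. The share of Aldh1a1 in that sum was 11.8% ± 0.560 in saline and 16.2% ± 2.56 in dex.

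Of the enzymes of breakdown, Cyp26b1 (chromosome 6, 84571414 to 84593908) was at 14, 18.3 and 16.6 CPM in saline somatic cells and at 28, 27.8 and 25.6 CPM in dex somatic cells. The dex libraries lay close together and all above the saline libraries. The rise was 1.67-fold (log2 fold change 0.74, SE 0.12, 95% interval 0.48 to 1.00, adjusted p by edgeR = 0.00159). Cyp26a1 (chromosome 19, 37697808 to 37701528), the retinoic acid target shown above, had 8, 11 and 31 counts in saline and 0, 9 and 7 counts in dex somatic libraries. These overlapped, and the gene was too low to be tested.

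Crabp1 (chromosome 9, 54764748 to 54773110) was at 56.9, 49.2 and 65.8 CPM in saline somatic cells and at 46.0, 42.8 and 37.5 CPM after dex. All dex libraries were lower than all saline libraries, with a small gap between the groups. The level was 1.36-fold lower after dex (log2 fold change -0.44, SE 0.11, 95% interval -0.67 to -0.21, adjusted p by edgeR = 0.0214). The call was lost on leaving out saline replicate 1, saline replicate 3 or dex replicate 2 (adjusted p by edgeR 0.0701, 0.120 and 0.0585) and with the spread shared over all 12 libraries (0.175). Rarb (chromosome 14, 16430839 to 16819156) was at 10.9, 9.55 and 9.58 CPM in saline against 10.9, 12.4 and 9.86 CPM after dex, which overlapped (log2 fold change 0.15, 95% interval -0.17 to 0.47, adjusted p by edgeR = 0.637). Rarb overlaps Top2b on the opposite strand, which had up to 4346 counts in a library, and its counts are uncertain because no source states whether counting used strand.

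The make-up of the GFP-negative fraction was measured beside these values, since in bulk samples fewer cells of a type and less RNA per cell cannot be told apart. The 7 macrophage markers summed to 173 to 229 CPM in saline against 48.2 to 122 CPM in dex somatic libraries, and 4 of 7 fell in edgeR's test. The 8 germ cell markers summed to 8.84 to 14.1 CPM in saline against 17.7 to 27.3 CPM in dex somatic libraries. Of 6 tested, only Dazl was called, with means of 1.17 CPM in saline and 12.6 CPM in dex, so that this sum followed mainly 1 gene. Ddx4, Mael and Sycp3 averaged 1.11, 0.835 and 1.30 CPM in saline and 1.73, 1.46 and 2.30 CPM in dex. Taf7l averaged 3.32 CPM in saline and 3.03 CPM in dex, and Dnd1 3.21 and 2.59 CPM. Pou5f1 and Dppa3 averaged 0.0619 and 0.0606 CPM in saline and 0 in dex, below the floor of detection in both, so they show no direction. The macrophage and germ cell sums each had a two-sided exact permutation p of 0.1, the smallest that 3 libraries against 3 can give. The 10 pregranulosa markers summed to 1430 to 1520 CPM in saline against 1204 to 1493 CPM in dex, with 1 of 10 lower (exact permutation p = 0.3). The other sums had exact permutation p-values of 0.2 for endothelial, 0.4 for surface epithelium and perivascular, 0.6 for stromal, 0.8 for mesonephric and 0.9 for erythroid markers. Single genes of 3 of these lists were called. Of 6 endothelial markers, 1 was higher (Emcn, log2 fold change 0.43) and 2 were lower (Cdh5 and Tie1, -0.50 and -0.65), of 5 perivascular markers 1 was higher (Cspg4, 1.06) and 1 lower (Mcam, -0.45), and of 8 stromal markers 1 was higher (Pdgfra, 0.62), with adjusted p-values by edgeR of at most 0.0496. The part of these shifts in the retinoid results was not tested. Dex replicate 3 differed most from the other libraries of its group, and without it the same number of retinoid genes, 4, was called.

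In germ cells no retinoid gene passed the test. Of the 9 genes, 6 were tested and 0 were called, where 0.208% of all 16857 genes tested were called. At an unadjusted p under 0.05 there were 2, Adh1 upward and Cyp26b1 downward, beside 11.6% of all genes, and DESeq2 also called 0. Without the low-count filter edgeR called 2, Adh1 and Aldh1a1 (BH-adjusted p = 2.13e-07 and 0.0106).

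**Figure D3:**
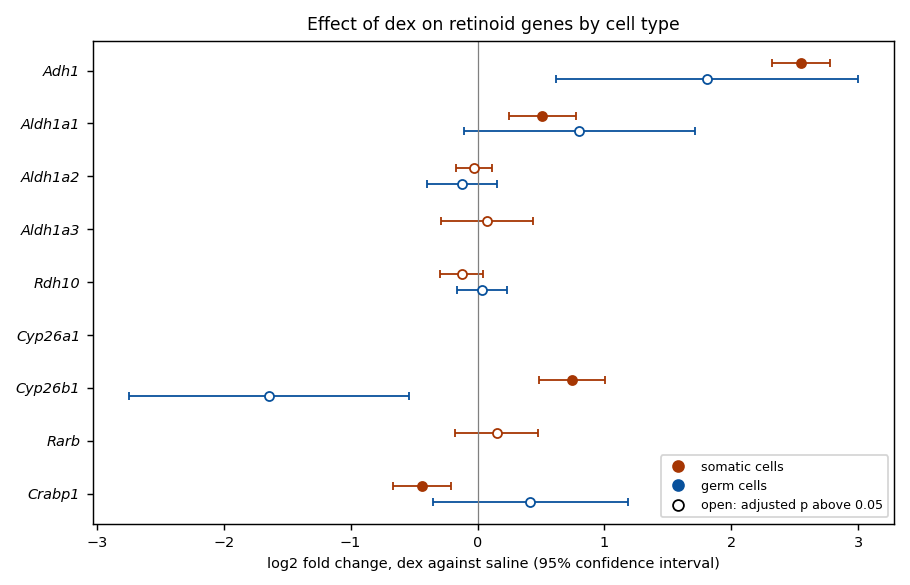
Log2 fold change of dex against saline for each retinoid gene in somatic cells and in germ cells, with 95% confidence intervals and filled points for a BH-adjusted p of at most 0.05. Adh1 lay above 0 in both cell types, Cyp26b1 lay above 0 in somatic cells (0.74) and below 0 in germ cells (-1.64), and genes without a point were too low to be tested.

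Cyp26b1 was at 1.03, 1.06 and 1.74 CPM in the saline germ cell libraries and at 0.196, 0.648 and 0.358 CPM in the dex germ cell libraries. These values rest on 16, 18 and 30 counts in saline and 3, 10 and 6 counts in dex, and the groups did not overlap. The log2 fold change was -1.64 (SE 0.51, 95% interval -2.74 to -0.54), which did not pass the test (adjusted p by edgeR = 0.271). Adh1 was at 0.839, 1.89 and 2.21 CPM in saline against 1.24, 8.68 and 7.34 CPM in dex germ cell libraries. Dex replicate 1 fell among the saline libraries while the other two lay above them. The log2 fold change was 1.81 (SE 0.55, 95% interval 0.62 to 3.00, adjusted p by edgeR = 0.259), and it was 2.26 without dex replicate 1 (adjusted p by edgeR = 0.0064).

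Aldh1a1 followed the same order of libraries, with 4.71, 5.73 and 8.76 CPM in saline against 3.73, 18.3 and 11.2 CPM in dex germ cell libraries, where dex replicate 1 was the lowest of all 6. Its log2 fold change was 0.80 (95% interval -0.11 to 1.71, adjusted p by edgeR = 0.498). Rdh10, the retinoid gene with the smallest gap between the cell types, was at 43.1, 42.6 and 37.3 CPM in saline against 38.3, 42.6 and 43.3 CPM in dex germ cells (log2 fold change 0.03, 95% interval -0.16 to 0.23, adjusted p by edgeR = 0.919). Aldh1a2 was at 25.0 to 30.4 CPM in saline against 20.1 to 27.8 CPM in dex germ cells, and Crabp1 at 1.35 to 2.67 CPM and 1.62 to 3.76 CPM, both overlapping (adjusted p by edgeR = 0.746 and 0.684). Aldh1a3, Rarb and Cyp26a1 had at most 13, 10 and 4 counts in any germ cell library and were not tested.

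Transcripts of somatic cell types in the germ cell libraries were set beside these levels, each as a percentage of the mean level in somatic libraries of the same treatment. Each list was summarized by its median, although its genes differed widely. In saline, Wt1 and Irx5 of the pregranulosa list averaged 8.56 and 8.44 CPM in germ cells against 479 and 20.9 CPM in somatic cells. Of the endothelial list, Kdr averaged 2.66 CPM in germ cells against 162 CPM, while Tek was higher in germ cells (27.7 against 12.4 CPM). A list median is therefore not a measure of how much somatic RNA a library held. The median over the 10 pregranulosa markers was 3.95%, 6.49% and 8.76% in the saline germ cell libraries and 2.75%, 13.6% and 11.8% in the dex germ cell libraries. Their summed level was 48.3 to 95 CPM in saline against 37.6 to 132 CPM in dex germ cell libraries (two-sided exact permutation p = 0.6). The sum of the 6 surface epithelium markers was 5.94 to 7.37 CPM in saline against 3.66 to 5.25 CPM in dex germ cell libraries. It was the 1 marker sum whose groups did not overlap there (exact permutation p = 0.1, the smallest possible), and none of its 3 tested genes was called. The other sums had exact permutation p-values of 0.3 to 0.8 in germ cells. On the percentage scale Adh1 was at 3.51%, 7.91% and 9.23% in saline and 0.891%, 6.23% and 5.27% in dex, so that in both treatments replicate 1 was lowest for Adh1 and for the pregranulosa markers alike. Aldh1a1 was at 5.60%, 6.81% and 10.4% in saline and 3.13%, 15.3% and 9.42% in dex. The shares of Adh1 and Aldh1a1 run in the same order as the pregranulosa median within each treatment, over 3 libraries each. So do those of Cyp26b1, given below, and of Aldh1a2, at 8.82%, 9.62% and 10.7% in saline and 7.29%, 10.1% and 9.79% in dex. The remaining retinoid genes did not. Aldh1a3, Rarb and Crabp1 ran in that order in saline only. In dex they were at 1.38%, 4.09% and 4.40%, at 1.77%, 5.86% and 1.08%, and at 6.53%, 3.85% and 8.94%. Rdh10 and Cyp26a1 ran in that order in neither treatment. The other marker lists did not all run this way. The macrophage median was also lowest in replicate 1 of both treatments, whereas the endothelial median was highest there, at 8.46%, 8.20% and 6.70% in saline and 10.7%, 7.66% and 9.34% in dex. The stromal, surface epithelium, perivascular and erythroid medians were lowest in replicate 1 in saline but in replicate 3 in dex. The mesonephric median was lowest in replicate 3 in saline and in replicate 2 in dex.

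Cyp26b1 did not keep its share, with 6.34%, 6.52% and 10.7% in saline germ cell libraries and 0.723%, 2.39% and 1.32% in dex germ cell libraries. Because the somatic level of Cyp26b1 rose after dex, the dex shares were divided by a higher value. Rdh10 was at 56.5% to 71.9% in all 6 libraries, above every marker list, and Aldh1a2 was at 7.29% to 10.7%. Over all 6 germ cell libraries the medians of the marker lists ran from 0.408% to 0.905% for stromal, 0.497% to 1.34% for surface epithelium, 1.15% to 2.19% for perivascular, 2.48% to 12.2% for mesonephric, 6.70% to 10.7% for endothelial, 2.60% to 15.8% for macrophage and 0.0972% to 1.01% for erythroid markers. How much of each retinoid transcript in the germ cell libraries came from somatic cells was not tested.

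**Figure D4:**
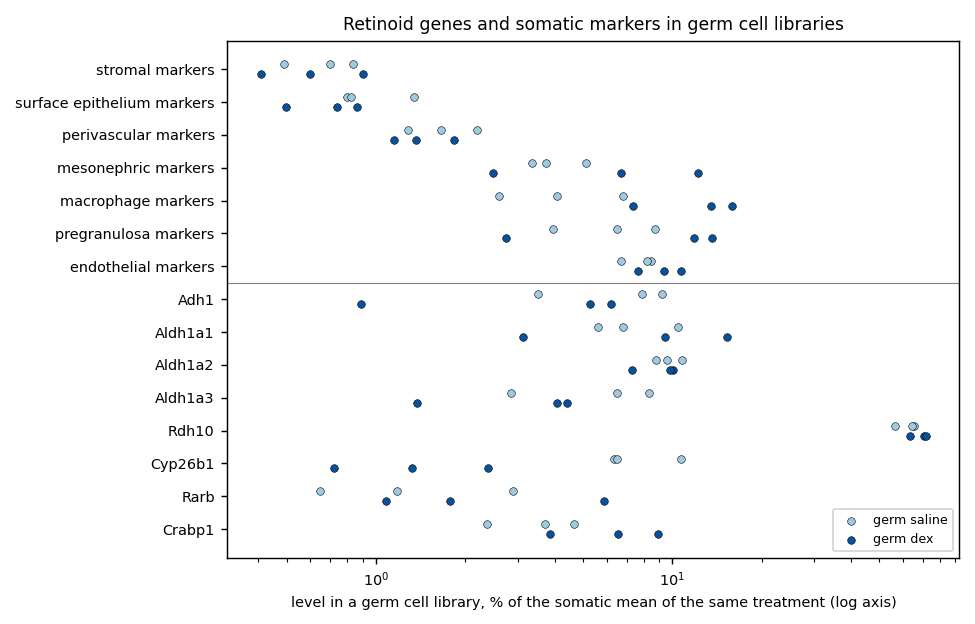
Level in each germ cell library as a percentage of the somatic mean of the same treatment (log axis), for the median of each somatic marker list (above the line; erythroid markers not drawn) and for each retinoid gene except Cyp26a1 (below it), with 1 point per library. Rdh10 stood at 56.5% to 71.9%, Adh1 and Aldh1a1 spread between 0.891% and 15.3%, and Cyp26b1 was lower in all 3 dex libraries than in any saline library.

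Whether the response to dex differed between the cell types was tested in 1 model over all 12 libraries, as the germ cell effect minus the somatic effect. Of the 8 genes tested, Cyp26b1 alone was called, where 1.62% of all 19390 genes tested were called. Its difference was -2.40 on the log2 scale (SE 0.41, 95% interval -3.26 to -1.54, adjusted p by edgeR = 0.00545), rank 15 by size among the 219 genes called with a negative difference. In the separate fits above, the somatic effect was 0.74 and the germ cell effect -1.64, and all 3 dex libraries were higher than saline in somatic cells and all 3 lower in germ cells. The call held in each of the 16 alternatives run, with a difference of -2.89 to -2.09 and an adjusted p of at most 0.0272. Germ and somatic libraries of a pool may not be independent, and with the treatment and replicate number as a block that joined both fractions the difference was -2.39 (adjusted p by edgeR = 0.0164).

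For the other genes the difference did not pass the test, with intervals that were wide where germ cell counts were low. It was -0.76 for Adh1 (95% interval -1.93 to 0.42, adjusted p by edgeR = 0.561) and 0.28 for Aldh1a1 (95% interval -0.66 to 1.22, adjusted p by edgeR = 0.829), the latter -0.26 without germ cell dex replicate 2. Crabp1 had a difference of 0.84 (95% interval 0.15 to 1.54, unadjusted p = 0.0198, adjusted p by edgeR = 0.226). It was called in 1 of 16 alternatives, edgeR without the low-count filter (adjusted p by edgeR = 0.0436). The differences of Aldh1a2 and Rdh10, at -0.11 and 0.15, had the narrowest intervals, -0.40 to 0.18 and -0.12 to 0.41. Rarb and Aldh1a3 were at 0.80 and -0.84 (adjusted p by edgeR = 0.631 and 0.493), and the Rarb value ran from -0.17 without germ cell dex replicate 2 to 1.56 without germ cell saline replicate 3.

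A list of 55 other genes of retinoid uptake, metabolism, reception and response was counted in the same fits. In somatic cells 37 were tested, of which 6 were called (16.2%, beside 8.18% of all genes), 3 higher and 3 lower after dex, with a median log2 fold change of -0.02 beside 0.00 over all genes. This list too was chosen with earlier results known, so its share is not a test of the list. The binding proteins moved in opposite directions. Fabp5, a fatty acid binding protein that also carries retinoic acid, rose from 28.1 ± 1.62 CPM in saline to 60.2 ± 4.67 CPM in dex (log2 fold change 1.11, SE 0.09, adjusted p by edgeR = 3.68e-06). Crabp2, which delivers retinoic acid to its receptors, fell from between 23.0 and 31.9 CPM in saline to between 13.3 and 17.9 CPM in dex (log2 fold change -0.75, SE 0.15, adjusted p by edgeR = 0.00776), as Crabp1 did.

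Among genes of retinol uptake and storage, Stra6, the retinol uptake receptor, rose by 0.29 on the log2 scale and Dgat1, an acyltransferase of triglyceride synthesis that can also esterify retinol, had a log2 fold change of -0.51 (adjusted p by edgeR = 0.0151 and 0.0140). Of the 5 tested in that group, 3 were not called. Dhrs3, which reduces retinal back to retinol and is itself induced by retinoic acid, rose from 67.0 ± 4.56 CPM in saline to 86.8 ± 5.92 CPM in dex (log2 fold change 0.38, adjusted p by edgeR = 0.00657), the 1 call among 10 tested genes of retinol and retinal interconversion. None of the 10 nuclear receptors and cofactors tested was called, with 2 at an unadjusted p under 0.05, near the 20.9% of all genes, and DESeq2 also called 0. Their log2 fold changes in somatic cells were 0.18 for Rara, -0.07 for Rarg, -0.02 for Rxra and -0.06 for Rxrb, and Rxrg, at no more than 10 counts in a library, was not tested. Of 9 response genes tested, Meis2, a homeobox gene, was the 1 called, with a log2 fold change of -0.32 (adjusted p by edgeR = 0.00673). Of these 6 calls, those of Fabp5 and Meis2 held in each of the 11 alternatives. Stra6 was lost without saline replicate 2, without saline replicate 3 and without dex replicate 2 (adjusted p by edgeR 0.0902, 0.0734 and 0.0551), Dgat1 without saline replicate 2 or 3 (0.0539 and 0.0809) and Crabp2 without saline replicate 3 (0.0512). With the spread shared over all 12 libraries Stra6, Dhrs3 and Crabp2 were lost (0.236, 0.125 and 0.0866).

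**Figure D5:**
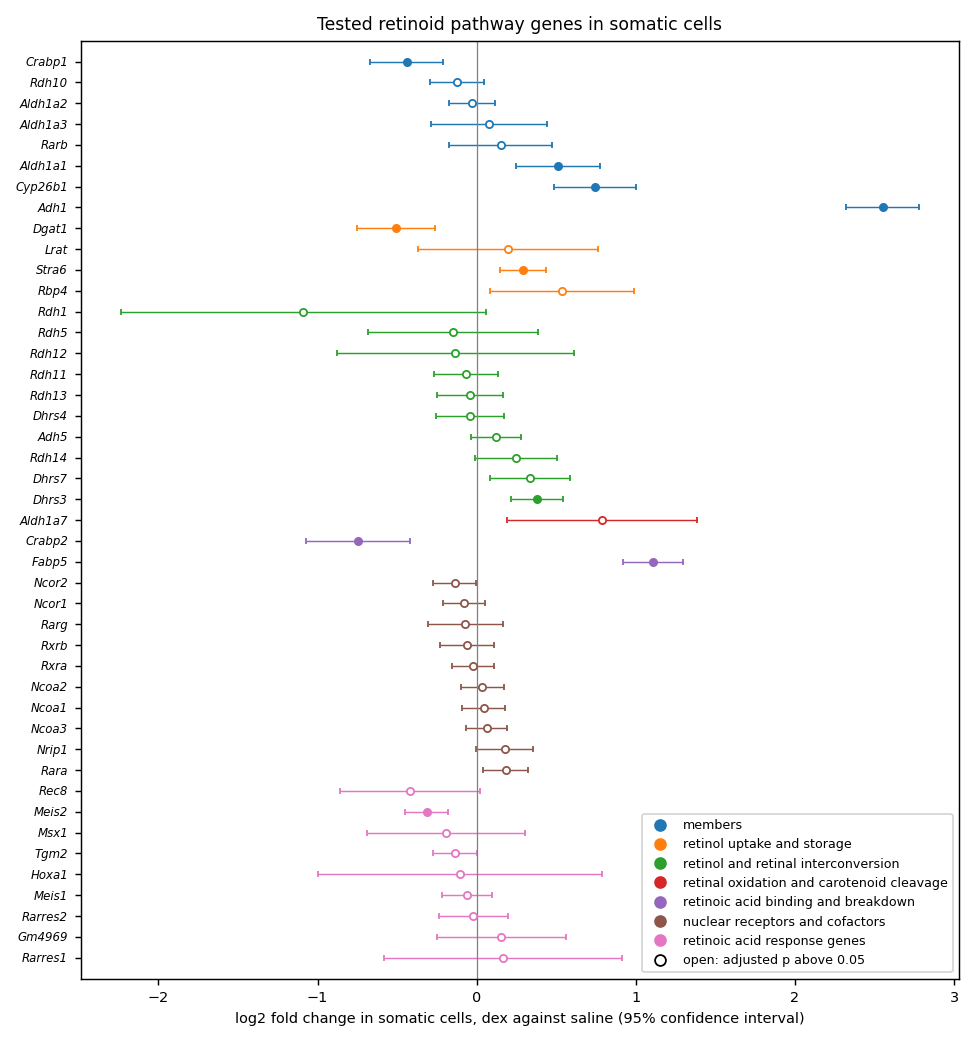
Log2 fold change of dex against saline in somatic cells, with 95% confidence intervals, for the retinoid pathway genes tested (1 of those not called is not drawn), coloured by role and filled where the BH-adjusted p was at most 0.05. Calls lay on both sides of 0, with Adh1 at 2.55 and Fabp5 at 1.11 the largest rises and Crabp2 at -0.75 the largest fall among the calls.

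In germ cells 37 of the 55 genes were tested and 0 were called by edgeR, with 4 at an unadjusted p under 0.05, a share near the 11.6% of all genes. DESeq2, and edgeR without the low-count filter, each called 1, Gm4969, a meiotic regulator induced by retinoic acid together with Stra8. Gm4969 was at 363 ± 58.0 CPM in saline against 463 ± 48.8 CPM in dex germ cells (log2 fold change 0.37, adjusted p by edgeR = 0.218). Stra8 itself ran from 13.1 to 30.5 CPM in saline germ cells and from 14.9 to 37.6 CPM in dex germ cells (log2 fold change 0.03, 95% interval -0.67 to 0.74, adjusted p by edgeR = 0.980). In the test of the difference between cell types, 0 of 42 tested genes were called, with 1 at an unadjusted p under 0.05 beside 15.4% of all genes. Dgat1 (adjusted p by edgeR = 0.0924) was called by DESeq2, without the low-count filter and without germ cell saline replicate 2. Among saline libraries 38 of 41 tested genes differed between the cell types (92.7%, beside 86.1% of all genes). Of these, 11 were higher and 27 lower in germ cells, beside 7739 higher and 7701 lower over all genes. Among the receptors, Rxrb was higher in germ cells (log2 difference 0.71), while Rara, Rarg and Rxra were lower (-2.92, -2.87 and -1.39).

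The genes whose level ran most like each called retinoid gene over the 6 somatic libraries were listed by Pearson's r of log2(CPM + 0.5), as a description over libraries that share the dex contrast. For Adh1 they were Prok2, P4ha2 and Rbbp7 (each r = 0.999). Prok2 averaged 0.0626 CPM in saline and 0.773 CPM in dex, and P4ha2 and Rbbp7 had log2 fold changes of 1.09 and 0.66. For Cyp26b1 they were Cyp2s1, a cytochrome P450, Gm45047 and Adm, the gene of adrenomedullin (r from 0.995 to 0.997). Cyp2s1 and Adm had log2 fold changes of 0.41 and 0.92, and Gm45047 averaged 0.252 CPM in saline and 1.28 CPM in dex. Irgm1, Hormad1 and Cisd3 ran most like Aldh1a1 (r from 0.990 to 0.997), and Efnb1, Nipsnap3b and Hdac7 most like Crabp1 (r from 0.991 to 0.994). None of these last 6 was called in somatic cells.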

How the data were processed

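Poly-A RNA-seq reads were aligned to mm10 with HISAT2 2.0.5 and counted per gene with featureCounts 1.5.0-p3, per the submitters' processing notes. The authors deposited raw counts for 54532 genes and FPKM values computed from them. Whether counting used strand, and how reads mapping to several places were treated, is not given in the sources used here. The authors also deposited tables of their own DESeq2 comparisons (fold changes and p-values), which were not used.

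The counts were tested with edgeR 4.0.16 (quasi-likelihood test, TMM, filterByExpr, BH adjustment over all genes tested, called at 0.05) in R 4.3.3, within somatic cells, within germ cells, for the difference over all 12 libraries and between cell types in saline. SEs are those implied by the F statistic. Alternatives were DESeq2 1.42.0, other size factors, no low-count filter, a shared fit, a replicate block and each library left out in turn. The scripts were tested on simulated data. Each library was a biological replicate pooled over at least 2 whole litters dosed separately, per the study, so p-values measure the spread between such pools. No 2 libraries of a group differed by less than sampling noise.

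Named genes were the 9 retinoid genes, called genes of the wider list plus fixed receptor and uptake genes, and the 3 genes most like each called gene. Aldh1a7, Gm4969, the dex targets and the markers named were added after their values were seen. For 1 gene of the wider list no value is reported here. The retinoid genes, the wider list and the marker lists were chosen with earlier results of these data known.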

Additional observations from a re-analysis of the deposited data

Results flagged for a closer look

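Cyp26b1 is listed because its response to dex differed between germ and somatic cells in the test of the difference itself, by -2.40 on the log2 scale (SE 0.41, edgeR BH-adjusted p = 0.00545), with every dex library higher in somatic cells and lower in germ cells. Its germ cell values rest on 3 to 30 counts per library, and the germ cell effect alone did not pass the test (edgeR BH-adjusted p = 0.271).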

How the results depend on the processing

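In somatic cells, sharing the spread over all 12 libraries gave 2 called retinoid genes, 3 of the wider list and 803 of all genes. Leaving out 1 library gave 2 to 4, 3 to 7 and 754 to 1881, with 2 retinoid genes called without dex replicate 2 or saline replicate 1, 3 wider genes without saline replicate 3, and 754 to 888 of all genes without dex replicate 2 or any 1 saline library. In germ cells, removing the low-count filter gave 2, 1 and 420 calls, DESeq2 called 1 wider gene and 158 of all genes, and the shared fit called 64 of all genes. Leaving out 1 library gave 0 to 1 retinoid genes (1 without dex replicate 1) and 17 to 81 of all genes (81 without dex replicate 1, 17 without dex replicate 2 or saline replicate 3). For the difference between cell types, no filter gave 2 retinoid genes (Cyp26b1 and Crabp1) and 727 of all genes, DESeq2 gave 620, and leaving out 1 library gave 143 to 384. The causes were not tested, beyond the different number of genes or libraries that enter each fit. In the saline comparison 8 to 9 retinoid genes, with Cyp26a1 as the added 1, and 15530 to 15730 of all genes were called with 1 library left out.

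With 1 library left out, 6 values changed sign without passing the test in either direction. In somatic cells these were Aldh1a2 (range -0.0755 to 0.0093, positive without saline replicate 3) and Aldh1a3 (-0.0771 to 0.18, negative without dex replicate 3), and in germ cells Rdh10 (-0.0373 to 0.0765, negative without saline replicate 3). In the difference they were Aldh1a1 (-0.26 to 0.69, negative without germ cell dex replicate 2), Aldh1a2 (-0.17 to 0.0235, positive without germ cell dex replicate 1) and Rarb (-0.17 to 1.56, negative without germ cell dex replicate 2). With the replicate number as a block, 4 retinoid, 6 wider and 1520 of all genes were called in somatic cells, 0, 0 and 49 in germ cells, 1 retinoid and 222 of all genes for the difference, and 8 and 15283 in the saline comparison, and no call of a retinoid gene changed. No source states that a replicate number marks a shared pool. In deviations from the group means, same-numbered germ and somatic libraries of a treatment correlated at 0.067 to 0.12 in all 6 pairs, above 0.1 in 3, against -0.084 to -0.014 for other numbers, and 6 of 6 were closest to their own number, a hint from the data only that they share a pool. Same-numbered dex and saline libraries correlated at -0.004 to 0.166, with 3 of 6 closest to their own number. Low counts limit the germ cell values of Cyp26b1, Aldh1a3, Rarb and Cyp26a1.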
